A study of Mus musculus with 9 samples.

Results

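Neutrophil granule and surface genes were followed across 9 Agilent single-colour microarrays of mouse macrophage samples. The set holds 32 genes, listed by symbol, out of 36492 gene names on the array. Of these, 31 had a probe by that name (35 probes in all). Expression of Ly6g was not analysed here. The other 31 were divided by the stage of neutrophil maturation at which they are best known: 5 primary granule and promyelocyte genes, 8 secondary granule and myelocyte to metamyelocyte genes, 7 late-stage surface, receptor and signalling genes, and 11 late-stage cytosolic and secreted genes.

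The mice were C57BL/6J throughout, and the arrays measured total RNA of cells labelled as macrophages. The control group (PEC) is peritoneal exudate cells of the peritoneum, and the labels do not state how the exudate was obtained. The F4/80high and F4/80low groups are tumour-associated macrophages (TAM) of a fibrosarcoma, and F4/80 is the only marker of the sort that the labels give. Each group has 3 samples, which the series calls biological replicates without saying whether each is a separate animal, so the p-values reflect the spread among these 9 samples only, some of which may be technical. Tumour and tissue of origin change together between TAM and PEC and cannot be told apart.

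Neutrophils fill their granules in a fixed order as they mature in the bone marrow. Promyelocytes make the proteases and peroxidase of the primary (azurophil) granules, and myelocytes and metamyelocytes make the proteins of the secondary granules under the transcription factor C/EBP epsilon. These transcripts are largely switched off before the cell leaves the marrow, whereas receptors for formyl peptides, leukotriene B4 and G-CSF and many cytosolic proteins belong to the mature cell. Several members are not restricted to neutrophils: Anxa1, Csf3r, Slpi, Trem1, Fpr1, Fpr2 and Hdc are also made by other myeloid cells.

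Between 21421 and 22695 spots per array, out of 59305 that are not controls, stood well above background, and none was saturated. A level is given below as the log2 processed signal minus the array's 75th percentile, so 0 is that percentile, and levels of different genes are not compared because they come from different probes. Adgre1, which encodes F4/80, lay between 5.71 and 6.21 on the F4/80high arrays and between 2.45 and 3.44 on the F4/80low arrays, as the sort labels say (limma, adjusted p = 8.22e-05). Csf1r, the receptor that marks the macrophage lineage and was named here to check the cell label, lay between 8.43 and 9.29 on all 9 arrays. Mertk, a macrophage receptor, was well above background on all PEC and F4/80high arrays and on no F4/80low array. PEC replicate 1 shared slide 1 with all 6 TAM arrays, and PEC replicates 2 and 3 were on slide 2.

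The members were measured on nearly every F4/80low array and on fewer of the others. Of 31 members, 31, 31 and 29 were well above background on F4/80low replicates 1, 2 and 3, against 21, 16 and 17 on the F4/80high arrays and 12, 13 and 12 on the PEC arrays. On all 3 arrays of a group, 10 members were above background in PEC, 14 in F4/80high TAM and 29 in F4/80low TAM. A total of 16 members were above background on no PEC array and 9 on no F4/80high array. In RNA from whole samples, fewer cells of a type and less RNA per cell cannot be told apart.

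**Figure D1:**
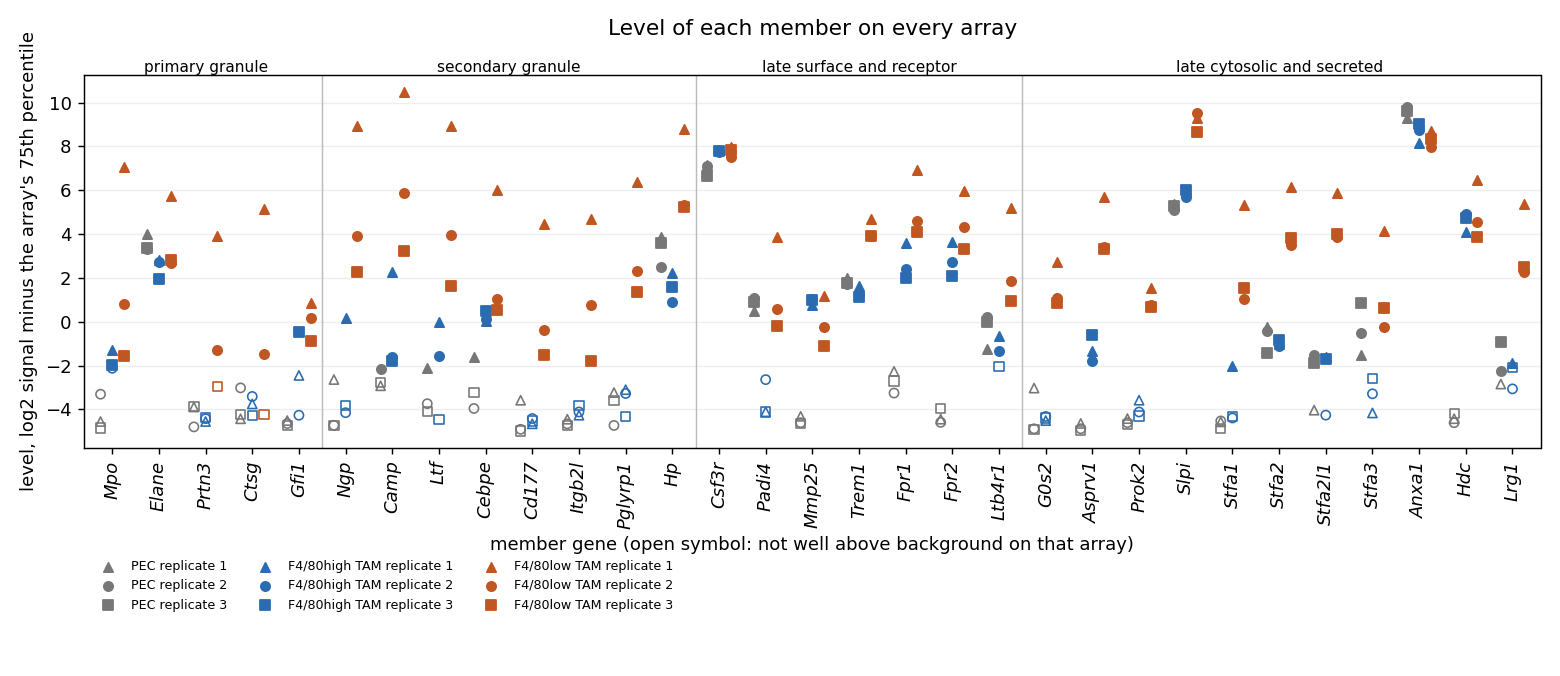
Level of each of the 31 members on every array (y axis, log2 signal minus the array's 75th percentile), with genes on the x axis in 4 maturity classes, PEC in grey, F4/80high TAM in blue and F4/80low TAM in orange, and open symbols for arrays where the probe was not well above background. The F4/80low replicate 1 triangle is the highest F4/80low symbol for 30 of 31 members, and Slpi is the exception.

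A gene was tested when at least 1 group had a probe of it well above background on each of its 3 arrays, which 29 members passed. Of these, 12 passed through the F4/80low arrays alone and were therefore bound to be higher there, so the counts describe these genes and carry no support of their own. Against PEC, 25 of 29 members were higher in F4/80low TAM and 1 was lower at an adjusted p under 0.05 (limma with Benjamini-Hochberg adjustment over 16462 genes), where 22.7% of all genes tested were higher and 29.2% lower. F4/80high TAM had 8 members higher and 3 lower than PEC, where 25% of all genes were higher and 28% lower. Directly between the TAM subsets, 21 members were higher in F4/80low TAM and 0 lower, where 14% of all genes were higher and 18.6% lower. All tests were two-sided. The first 2 comparisons share the PEC arrays. The probes of Csf3r and Trem1 carry repeats (described with these genes), and without both genes the counts of 27 members were 23 higher and 1 lower, 7 higher and 3 lower, and 20 higher and 0 lower. Within slide 1, where PEC was a lone array, fewer members passed against PEC in each TAM subset. The share of all genes called there is not given. The 3 lower calls in F4/80high TAM depended on single arrays: 1 was left without F4/80high replicate 1, and likewise without either PEC array of slide 2 (replicates 2 and 3), and 5 were made without F4/80low replicate 1, which enters the shared estimate of spread.

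The median log2 difference of the 29 tested members was 5.46 between F4/80low TAM and PEC, or 4.12 with members given as bounds set at their bound, beside -0.09 over all genes. It was 0.57 between F4/80high TAM and PEC, beside 0.00 over all genes, and 4.89 between the TAM subsets (3.65 with bounds), beside -0.08. Without the filter on dim probes, all 31 members entered. Then 25 members were higher and 1 lower in F4/80low TAM than in PEC, beside 26.4% and 13% of all genes. In F4/80high TAM 6 members were higher and 2 lower than in PEC, beside 11.3% and 11.5% of all genes. Between the subsets 19 were higher and 0 lower in F4/80low TAM, beside 5.84% and 6.81% of all genes.

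**Figure D2:**
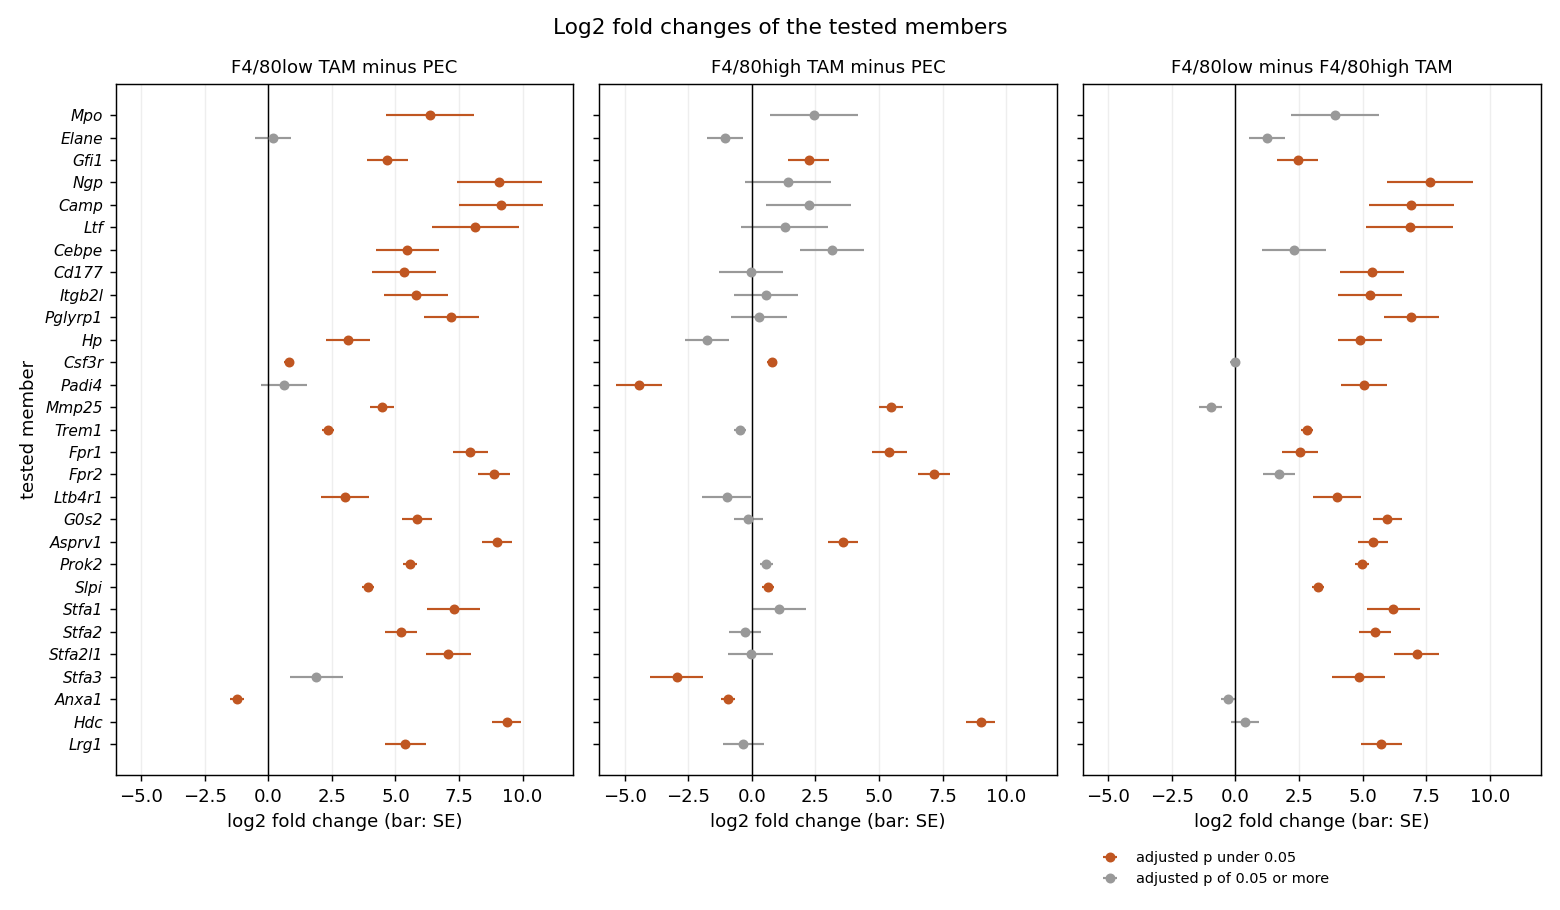
Log2 fold change (x axis) of the 29 tested members (y axis) in 3 comparisons, with bars of 1 standard error and orange points where the adjusted p was under 0.05. Where a group is below background its measured dim signal enters, so large values there are uncertain in size. Points lie mostly right of 0 in the left and right panels, 25 and 21 of them past the threshold, and scatter around 0 in the middle panel.

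Mpo, Ctsg and Prtn3 stood far higher on F4/80low replicate 1 than on any other array, whereas Elane was measured on all 9 arrays. Gfi1 differed less between the F4/80low arrays than the other primary granule genes. Its SD there, 0.89, was still above the 95th percentile of all genes, 0.86. All 5 primary granule genes were above background on F4/80low replicates 1 and 2, and 3 of them on replicate 3. Mpo encodes myeloperoxidase, the peroxidase of these granules. Its level was 7.06, 0.83 and -1.55 on F4/80low replicates 1, 2 and 3, -1.29, -2.13 and -1.96 on the F4/80high arrays (replicate 2 not well above background), and -4.56, -3.31 and -4.85 on the PEC arrays, where it was not well above background. F4/80low replicate 1 stood 6.23 log2 units above the next highest F4/80low array, and the F4/80low and F4/80high arrays overlapped. The mean was at least 25.4-fold higher in F4/80low TAM than in PEC (limma, adjusted p = 0.0134; 0.0915 with slide as a block) and did not pass the test against F4/80high TAM (difference 3.90 ± 1.73, SE; adjusted p = 0.118). A second Mpo probe was above background on F4/80low replicate 1 alone, at 4.03.

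Ctsg and Prtn3 encode cathepsin G and proteinase 3, serine proteases packed into the same granules. Ctsg was at 5.15 on F4/80low replicate 1 and at -1.46 on replicate 2. On F4/80low replicate 3, and on all PEC and F4/80high arrays, it was not well above background. Prtn3 was at 3.92 and -1.29 on F4/80low replicates 1 and 2 and not well above background on the other 7 arrays. Both genes thus missed the filter and were not tested. F4/80low replicate 1 exceeded replicate 2 by 97.8-fold for Ctsg and by 36.9-fold for Prtn3, the highest and the third highest ratios among the members, with Mpo between them.

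Elane encodes neutrophil elastase and showed another pattern across the groups. Its probe, unlike those of Mpo, Ctsg and Prtn3, gave signal well above background on every array. The PEC levels were 3.99, 3.31 and 3.38, the F4/80high levels 2.83, 2.72 and 1.94, and the F4/80low levels 5.76, 2.68 and 2.81. F4/80low replicates 2 and 3 thus lay below every PEC array and only replicate 1 lay above them. With every array in the fit, no comparison of Elane passed the test (limma). The adjusted p was 0.842 for F4/80low against PEC, 0.235 for F4/80high against PEC and 0.217 between the subsets. The F4/80high and PEC arrays of Elane did not overlap. Without F4/80low replicate 1, which enters the shared estimate of spread, Elane was lower in F4/80high TAM than in PEC (difference -1.06, limma, adjusted p = 0.0117). Gfi1, a transcriptional repressor needed for granulocyte differentiation, was at 0.87, 0.17 and -0.90 on the F4/80low arrays. It was well above background on 1 of 3 F4/80high arrays and on no PEC array, and was at least 6.08-fold higher in F4/80low TAM than in PEC (limma, adjusted p = 0.00138). Its other calls were close to the threshold: it was higher in F4/80high TAM than in PEC (adjusted p = 0.0425; 0.218 with slide as a block) and higher in F4/80low than in F4/80high TAM (adjusted p = 0.0453), and the latter was lost when the TAM arrays were paired by replicate number (adjusted p = 0.122).

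The secondary granule genes were all 8 above background on every F4/80low array and all 8 higher in F4/80low TAM than in PEC, beside 22.7% of all genes tested. Ngp, Ltf, Cd177, Itgb2l and Pglyrp1 passed the filter through the F4/80low arrays alone and were bound to be higher there. Their median difference from PEC was 6.51 (5.68 with bounds), and none of the 8 passed the test between F4/80high TAM and PEC. Against F4/80high TAM 7 of 8 were higher in F4/80low TAM, beside 14% of all genes tested, Cebpe being the exception. Within slide 1, which leaves a lone PEC array taken to be as variable as the TAM groups, 2 of the 8 still passed against PEC: Camp and Pglyrp1.

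Camp encodes cathelicidin, an antimicrobial peptide precursor. Its levels were 10.50, 5.88 and 3.21 on the F4/80low arrays, 2.25, -1.63 and -1.80 on the F4/80high arrays, and -2.93, -2.17 and -2.78 on the PEC arrays, of which only replicate 2 was well above background. The 3 groups did not overlap on this probe. It was higher in F4/80low TAM by 9.15 ± 1.66 (log2, SE) than in PEC (limma, adjusted p = 0.00179) and by 6.92 ± 1.66 than in F4/80high TAM (adjusted p = 0.0116). A second Camp probe gave 9.35, 4.58 and 2.13 on the F4/80low arrays, the same order of arrays. On it the F4/80high and PEC arrays overlapped, and 1 F4/80high array and no PEC array stood well above background.

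Ngp encodes neutrophilic granule protein, a relative of the cathelicidins. It was at 8.96, 3.91 and 2.27 on the F4/80low arrays and at 0.16 on F4/80high replicate 1, and was not well above background on the other 5 arrays. Its mean was at least 194-fold higher in F4/80low TAM than in PEC (limma, adjusted p = 0.00197; 0.0732 within slide 1). Ltf encodes lactoferrin, the iron-binding protein of secondary granules, and was at 8.93, 3.95 and 1.61 on the F4/80low arrays. On F4/80high replicates 1 and 2 it was at -0.03 and -1.59 and on PEC replicate 1 at -2.10, and the other 3 arrays were not well above background. The difference was 8.15 ± 1.71 from PEC (adjusted p = 0.00386; 0.104 within slide 1) and 6.85 ± 1.71 from F4/80high TAM (adjusted p = 0.0138). Camp, Ngp and Ltf therefore shared the order of the F4/80low arrays, replicate 1 far above replicate 2 and replicate 2 above replicate 3.

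Because Ngp, Ltf and Camp moved together, the promoters of the members were searched for TTGCNNAA, a core form of the site bound by C/EBP factors, on both strands (TTNNGCAA on the opposite strand). Promoters were the 300 bases from 250 before to 50 after a RefSeq start site (GRCm38.p6), and 30 of 32 members had an entry. A match lay in 7 of the 30 (23.3%), beside 3298 of 27025 genes in the table (12.2%), and in 2 of 6 secondary granule genes, Ngp and Ltf. A match is a description of the letters and does not show that a factor binds. The 250 bases before the start are printed for the 3 genes, 5′ to 3′ on the strand of the gene, with matches in capitals. Ngp had 2 matches, starting 138 and 11 bases before the start, Ltf had 1 at 75 bases before it, and Camp had 0 in its window.
Ngp, chr9:110419558-110419807, plus strand: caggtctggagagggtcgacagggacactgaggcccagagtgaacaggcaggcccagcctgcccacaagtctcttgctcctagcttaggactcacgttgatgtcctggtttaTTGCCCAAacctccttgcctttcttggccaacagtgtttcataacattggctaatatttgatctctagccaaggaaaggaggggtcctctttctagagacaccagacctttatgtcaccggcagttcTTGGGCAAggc
Ltf, chr9:111019042-111019291, plus strand: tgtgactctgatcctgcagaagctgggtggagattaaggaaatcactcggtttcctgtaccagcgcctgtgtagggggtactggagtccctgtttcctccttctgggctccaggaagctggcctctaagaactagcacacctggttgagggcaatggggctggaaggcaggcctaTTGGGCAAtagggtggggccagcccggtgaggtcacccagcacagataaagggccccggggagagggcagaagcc
Camp, chr9:109849457-109849706, minus strand: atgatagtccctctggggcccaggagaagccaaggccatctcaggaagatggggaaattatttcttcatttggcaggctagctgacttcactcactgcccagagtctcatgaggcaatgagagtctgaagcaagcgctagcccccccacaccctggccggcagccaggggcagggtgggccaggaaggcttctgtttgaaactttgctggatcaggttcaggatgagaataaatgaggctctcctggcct

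Cebpe encodes C/EBP epsilon, the factor of the promyelocyte to myelocyte step. Its levels were 6.01, 1.02 and 0.54 on the F4/80low arrays and 0.02, 0.14 and 0.49 on the F4/80high arrays, which lie just below F4/80low replicate 3. PEC replicate 1 was at -1.63 and the other PEC arrays were not well above background. It was higher in F4/80low TAM than in PEC by 5.46 ± 1.25 (limma, adjusted p = 0.00584). The differences of 3.16 ± 1.25 between F4/80high TAM and PEC (adjusted p = 0.0582) and 2.31 ± 1.25 between the subsets (adjusted p = 0.194) did not pass. Without F4/80low replicate 1, the difference between F4/80high TAM and PEC passed (limma, adjusted p = 0.000946).

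Cd177, Itgb2l and Pglyrp1 were detected above background on the 3 F4/80low arrays and on none of the other 6. Cd177 encodes a neutrophil surface protein that presents proteinase 3, and was at 4.44, -0.37 and -1.54 on the F4/80low arrays, at least 10.6-fold above PEC (limma, adjusted p = 0.00656) and at least 8.41-fold above F4/80high TAM (adjusted p = 0.0098). Itgb2l, an integrin beta subunit-like protein, was at 4.69, 0.75 and -1.82. Pglyrp1, a peptidoglycan recognition protein stored in granules, was at 6.36, 2.31 and 1.36 and at least 59.8-fold above PEC (adjusted p = 0.000654). Hp, which encodes haptoglobin, was the member of this class with signal on all 9 arrays: 8.78, 5.34 and 5.24 in F4/80low TAM, 2.23, 0.89 and 1.57 in F4/80high TAM, and 3.88, 2.52 and 3.58 in PEC. F4/80low replicates 2 and 3 of Hp were nearly equal, and its difference between the subsets was 4.89 ± 0.86 (adjusted p = 0.0025).

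Among the late-stage surface and receptor genes, several were above PEC in both TAM subsets. Of 7 tested, 6 were higher in F4/80low TAM than in PEC (median difference 3.02). In F4/80high TAM 4 were higher and 1 lower than in PEC, and 4 were higher in F4/80low than in F4/80high TAM. Over all genes tested, 22.7% were higher in the first comparison, 25% higher and 28% lower in the second, and 14% higher in the third. Fpr1 and Fpr2 are the formyl peptide receptors that guide phagocytes to bacteria and injured cells, and neither was well above background on a PEC array. Fpr1 was at 6.92, 4.59 and 4.09 on the F4/80low arrays and at 3.60, 2.40 and 1.99 on the F4/80high arrays. It was at least 210-fold higher in F4/80low TAM and at least 36.2-fold higher in F4/80high TAM than in PEC, and the subsets differed by 2.53 ± 0.70 (limma, adjusted p = 0.0211). Fpr2 was at 5.98, 4.31 and 3.30 against 3.66, 2.71 and 2.11, and the subsets overlapped (difference 1.71 ± 0.62, adjusted p = 0.0636). With the TAM arrays paired by replicate number Fpr2 passed (adjusted p = 0.0118), and each F4/80low array exceeded the F4/80high array of its number.

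The probe named Csf3r, for the G-CSF receptor, ends in letters of the B1 family of repeats. Runs of 20 bases or more of it are shared with 3 probes of other names, so its signal may come from other transcripts and cannot be read as Csf3r alone. Its levels were 7.99, 7.50 and 7.86 on the F4/80low arrays, 7.83, 7.74 and 7.79 on the F4/80high arrays, and 7.17, 7.11 and 6.66 on the PEC arrays. It was higher in F4/80low TAM than in PEC by 0.80 ± 0.20 (limma, adjusted p = 0.00823) and in F4/80high TAM by 0.81 ± 0.20 (adjusted p = 0.00735), and both calls were lost with slide as a block (adjusted p = 0.123 and 0.113). Mmp25, a membrane-anchored matrix metalloproteinase of leukocytes, was at 1.19, -0.25 and -1.10 in F4/80low TAM and at 0.76, 1.04 and 0.97 in F4/80high TAM. It was at least 5.67-fold and at least 11.2-fold higher than in PEC, where no array was well above background. The subsets of Mmp25 did not differ past the threshold (difference -0.98 ± 0.47, adjusted p = 0.147), and without F4/80low replicate 1 Mmp25 was lower in F4/80low TAM (difference -1.60, adjusted p = 0.00282).

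Probes of Padi4, Trem1 and Ltb4r1 were above background in PEC as well. Padi4 encodes the enzyme that citrullinates histones in neutrophil extracellular traps. It was at 0.51, 1.06 and 0.90 on the PEC arrays and at 3.89, 0.59 and -0.20 on the F4/80low arrays, and was not well above background on any F4/80high array. It was at least 8.28-fold lower in F4/80high TAM than in PEC (limma, adjusted p = 0.00281; 0.0724 within slide 1) and did not pass the test between F4/80low TAM and PEC (adjusted p = 0.598). A second Padi4 probe was above background on all PEC arrays, on F4/80low replicate 1 alone among the F4/80low arrays, and on no F4/80high array. Trem1 is an amplifier of inflammatory signals on myeloid cells, and its probe holds a simple repeat shared, over 20 bases or more, with 8 probes of 7 other names, so that its signal too may include other transcripts. It was at 4.67, 3.92 and 3.93 in F4/80low TAM, 1.64, 1.28 and 1.13 in F4/80high TAM and 1.99, 1.73 and 1.75 in PEC, and differed by 2.82 ± 0.24 between the subsets (adjusted p = 6.84e-05). Ltb4r1, the leukotriene B4 receptor, was at 5.21, 1.85 and 0.94 on the F4/80low arrays against -1.24, 0.22 and -0.03 on the PEC arrays (difference 3.02 ± 0.95, adjusted p = 0.0253; 0.065 with slide as a block).

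The late-stage cytosolic and secreted genes were above background on every F4/80low array, and 9 of 11 were higher and 1 lower there than in PEC (median difference 5.56). In F4/80high TAM 3 of 11 were higher and 2 lower than in PEC. Between the subsets, 9 of 11 were higher in F4/80low TAM. Of all genes tested, 22.7% were higher and 29.2% lower in F4/80low TAM than in PEC. For F4/80high TAM against PEC these shares were 25% and 28%, and between the subsets 14% were higher. G0s2, Prok2, Stfa1, Stfa2l1 and Lrg1 passed the filter through the F4/80low arrays alone and were bound to be higher there. Slpi encodes a secreted inhibitor of neutrophil serine proteases. It was at 9.31, 9.53 and 8.64 on the F4/80low arrays, 6.01, 5.69 and 6.01 on the F4/80high arrays and 5.38, 5.12 and 5.26 on the PEC arrays. It was the only member that was not highest on F4/80low replicate 1, and the subsets differed by 3.26 ± 0.24 (limma, adjusted p = 2.79e-05).

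Prok2, a chemokine-like peptide of mature neutrophils, was at 1.52, 0.78 and 0.66 on the F4/80low arrays and not well above background on the other 6, and was at least 11.6-fold above PEC (limma, adjusted p = 1.1e-06). G0s2, an inhibitor of triglyceride lipase, was likewise above background only on the F4/80low arrays, at 2.74, 1.09 and 0.86 (at least 17.4-fold above PEC, adjusted p = 6.01e-05). The 3 F4/80low arrays thus lay close together for Prok2 and less so for G0s2. Lrg1, a secreted leucine-rich glycoprotein, was at 5.37, 2.27 and 2.50 there and differed by 5.73 ± 0.80 between the subsets (adjusted p = 0.000796).

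Asprv1 and Hdc rose in both TAM subsets. Asprv1 encodes a retroviral-like aspartic protease. Its levels were 5.71, 3.41 and 3.34 on the F4/80low arrays and -1.34, -1.81 and -0.61 on the F4/80high arrays, at least 105-fold and at least 2.47-fold above PEC (limma, adjusted p = 5.24e-06 and 0.000789). Hdc encodes histidine decarboxylase, which makes histamine, and was at 6.47, 4.53 and 3.87 on the F4/80low arrays and at 4.07, 4.94 and 4.74 on the F4/80high arrays, with no PEC array well above background. It was at least 183-fold higher in F4/80low TAM and at least 141-fold higher in F4/80high TAM than in PEC, and the subsets overlapped (difference 0.37 ± 0.57, adjusted p = 0.656). Hdc is also the defining enzyme of basophils and mast cells. Of 18 eosinophil, basophil and mast cell genes 10 were above background on no PEC array, 15 on no F4/80high array and 7 on no F4/80low array. Of the 4 tested, 3 were higher and 1 lower in F4/80low TAM than in PEC and 2 were higher and 2 lower in F4/80high TAM. Over all genes tested, these shares were 22.7% and 29.2%, and 25% and 28%. Ccr3, the eotaxin receptor, and Tpsb2, a mast cell tryptase, were above background on all TAM arrays and higher than PEC in both subsets (limma, adjusted p = 7.06e-06 and 7.75e-05 for Ccr3, 0.00119 and 0.0115 for Tpsb2, in F4/80low and F4/80high TAM). Siglecf went the other way and was lower than PEC in both subsets (limma, adjusted p = 4.07e-05 and 5.46e-06). Ear2 was higher than PEC in F4/80low TAM (limma, adjusted p = 0.046) and lower in F4/80high TAM (adjusted p = 0.0223). The list's summed level lay between 2.65 and 4.53 in F4/80low TAM, 1.27 and 1.89 in F4/80high TAM and 2.99 and 3.54 in PEC, and its part in the Hdc signal was not tested.

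The stefins are intracellular inhibitors of cysteine proteases whose mouse genes form a cluster on chromosome 16. Stfa1 was at 5.34, 1.02 and 1.53 on the F4/80low arrays, and only F4/80high replicate 1, at -2.03, was above background among the other 6. Stfa2 was at 6.16, 3.51 and 3.84, and Stfa2l1 at 5.90, 3.88 and 4.01. All 3 were higher in F4/80low TAM than in PEC and in F4/80high TAM, with differences between the subsets of 6.21 ± 1.04, 5.49 ± 0.62 and 7.13 ± 0.89. Stfa3 was above background in PEC, at -1.52, -0.51 and 0.87, and on the F4/80low arrays, at 4.12, -0.25 and 0.62, but on no F4/80high array. It was at least 3.58-fold lower in F4/80high TAM than in PEC (limma, adjusted p = 0.0383; 0.402 within slide 1) and did not pass between F4/80low TAM and PEC (adjusted p = 0.158).
The probe named Stfa2l1 lists transcripts of both Stfa2 and Stfa2l1, so these 2 genes cannot be told apart with it. It covers chr16:36160118-36161876 of mouse build mm9 on the plus strand, spans an intron, and is shown because it is the probe on which the separation of the stefins turns.
Stfa2l1 probe: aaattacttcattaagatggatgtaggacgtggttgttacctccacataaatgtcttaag
Probes of different stefins shared runs of at most 9 bases, and those of Fpr1 and Fpr2 at most 6, out of 60 bases each. These runs compare probes with each other and not with transcripts, so they do not show that a probe is specific. The Stfa2l1 probe shared a run of 5 bases with the Stfa2 probe although it lists transcripts of both genes. Among all probes of the array, those of Stfa2l1 and Stfa3 each shared 20 bases or more with 1 probe of another name. Their signal may therefore include other transcripts.

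Anxa1, which encodes annexin A1, a protein that limits neutrophil recruitment and is abundant in macrophages, was the only member lower in F4/80low TAM than in PEC. It was at 9.32, 9.79 and 9.60 on the PEC arrays, 8.15, 8.75 and 9.02 on the F4/80high arrays and 8.70, 8.0 and 8.34 on the F4/80low arrays. The difference from PEC was -1.22 ± 0.27 in F4/80low TAM (limma, adjusted p = 0.00502) and -0.93 ± 0.27 in F4/80high TAM (adjusted p = 0.0172), and both calls were lost with slide as a block (adjusted p = 0.0914 and 0.206).

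The F4/80low arrays differed from each other more for the members than for other genes. The median SD over the 3 F4/80low arrays was 1.73 for the 29 members above background on all of them and 0.27 over 14460 genes, and 24 of the 29 exceeded the 95th percentile of all genes, 0.86. In the F4/80high group the median SD was 0.45 for 14 members and 0.20 over all genes, and in PEC 0.33 for 10 members and 0.22 over all genes. Of the 29 members, 28 were highest on F4/80low replicate 1, beside 5879 of 16460 genes in all (35.7%), and 20 were lowest on replicate 3 and 9 on replicate 2. Among the 16460 genes with a value on all F4/80low arrays, 205 exceeded the next highest F4/80low array on replicate 1 by more than 2 log2 units (1.25%), against 18 of 29 tested members. In a ranking of all genes by that distance, members took 6 of the first 10 places: Mpo, Ngp, Cebpe, Ltf, Cd177 and Camp, in that order.

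The distance differed by maturity class. F4/80low replicate 1 exceeded the next highest F4/80low array by a median of 5.21 log2 units (36.9-fold) over 5 primary granule genes and 4.71 (26.2-fold) over 8 secondary granule genes. Over 7 surface and receptor genes the median was 1.67 (3.19-fold), and over 11 cytosolic and secreted genes 1.94 (3.84-fold). All 8 secondary granule genes, with distances between 3.44 and 5.04, exceeded 2 log2 units. The lowest primary granule distance was 0.70, for Gfi1. The late-stage classes ranged from 0.13 for the repeat-bearing Csf3r probe to 3.36 for Ltb4r1 and from -0.22 for Slpi to 3.80 for Stfa1, so that the classes overlap. Genes of a class are not replicates, and the contrast between classes rests on 1 array and was not tested.

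**Figure D3:**
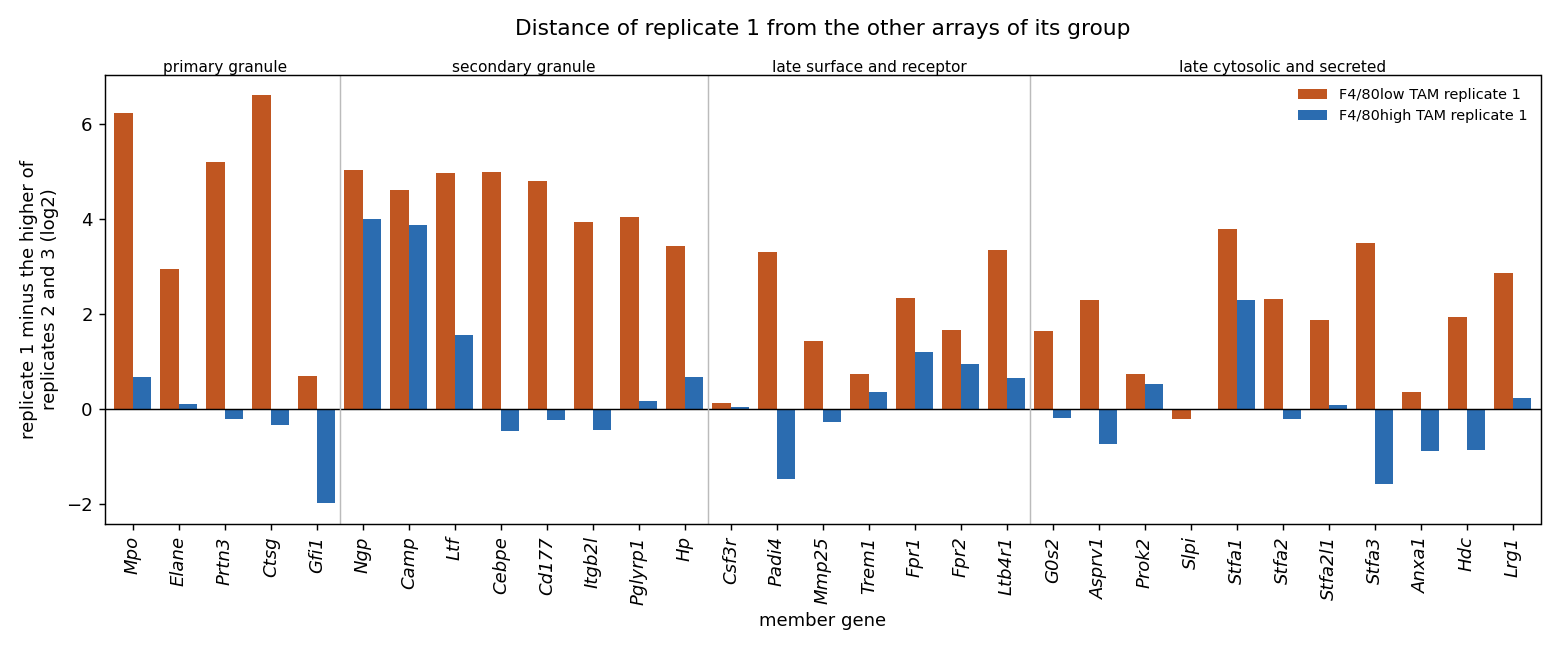
Distance of replicate 1 from the higher of replicates 2 and 3 of its group (y axis, log2) for each of the 31 members (x axis) in F4/80low TAM (orange) and F4/80high TAM (blue). Orange bars are tallest for Ctsg at 6.61 and Mpo at 6.23, all 8 secondary granule genes exceed 3, and Slpi is below 0; blue bars are tallest for Ngp at 3.99 and Camp at 3.89.

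F4/80high replicate 1 also stood above the other F4/80high arrays for some members. It exceeded the next highest by 3.99 log2 units for Ngp, 3.89 for Camp and 1.55 for Ltf among the secondary granule genes, and by 2.30 for the stefin Stfa1, with Ngp and Stfa1 above background on that array alone. Cebpe and Gfi1 were instead lowest or below background on F4/80high replicate 1.

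Leaving out F4/80low replicate 1 changed the sizes more than the calls. Without it, the same 25 of 29 members were higher and the same 1 lower than in PEC, with a median difference of 4.27 in place of 5.46. Between the subsets 20 were higher and 1 lower, with a median of 3.54 in place of 4.89: Gfi1 was lost (adjusted p = 0.123) and Mmp25 became lower. Camp then differed from F4/80high TAM by 4.94, Ngp by 5.70 and Ltf by 4.80, and Mpo from PEC by 3.88. In F4/80low TAM against PEC, Elane, at -0.82 (adjusted p = 0.0591), and Padi4, at -0.63 (adjusted p = 0.287), changed sign and passed neither with nor without it. F4/80high TAM against PEC kept its sizes and changed in calls, because that array enters the shared estimate of spread. Cebpe, Mpo and Prok2 became higher (limma, adjusted p = 0.000946, 0.00933 and 0.0466) and Elane and Hp lower (adjusted p = 0.0117 and 0.00679).

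Neutrophil genes outside the set moved with the members. Of 18 listed, 17 were tested. Against PEC, 15 were higher and 1 lower in F4/80low TAM, and 9 higher and 2 lower in F4/80high TAM. Between the subsets, 13 were higher and 0 lower in F4/80low TAM. Over all genes tested, these shares were 22.7% and 29.2%, 25% and 28%, and 14% and 18.6%. Among the 6 with the largest fitted differences from PEC were the calgranulin S100a9 (12.98 ± 1.17, log2), above background on 2 PEC arrays, and, above background on all PEC arrays, the siderophore-binding lipocalin Lcn2 (8.67 ± 1.02), the gelatinase Mmp9 (8.46 ± 0.32) and Chil3 (7.75 ± 0.96). The other two, Retnlg and Wfdc21, were above background on no PEC array and were at least 467-fold and at least 256-fold higher in F4/80low TAM. Mmp9, a protein of the late tertiary granules, was at 6.39, 6.54 and 6.21 on the F4/80low arrays. Lcn2, a secondary granule protein, was at 10.21, 6.36 and 5.40. Lcn2 was not alone in this: Ifitm6 was at 7.65, 3.50 and 3.26, and Wfdc21 at 7.92, 4.34 and 4.08. Of 17 genes of this list, 15 peaked on F4/80low replicate 1 and 2, Mmp9 among them, on replicate 2. The even levels of Mmp9 thus do not stand for the list, which was not divided by maturity. The summed signal of this list, as log2, lay between 7.71 and 8.62 in PEC, 8.49 and 8.91 in F4/80high TAM and 11.07 and 12.87 in F4/80low TAM.

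In the pathway that drives granulocyte differentiation and the response to G-CSF, 12 of 16 listed genes were tested, and 3 were higher and 3 lower in F4/80low than in F4/80high TAM. Higher were Serpinb1a, a granule-protease inhibitor (5.43 ± 1.26), Cxcr4, the marrow retention receptor (1.77 ± 0.29), and Myb, a progenitor transcription factor, which was above background on no F4/80high array and at least 4.38-fold higher. Lower were Cebpd (-1.39 ± 0.28), Stat3 (-0.92 ± 0.24) and Cbfb (-0.61 ± 0.19). Against PEC 4 were higher and 3 lower in F4/80low TAM, and 4 higher and 4 lower in F4/80high TAM. Of all genes tested, 22.7% were higher and 29.2% lower in F4/80low TAM than in PEC, and 25% and 28% in F4/80high TAM. Between the subsets, 14% were higher and 18.6% lower in F4/80low TAM. Csf3, the G-CSF gene, was well above background on no array.

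Markers of some other cell types also moved with the F4/80low label. Of 11 tested T cell genes 9 were higher than in PEC, with a summed level between 4.93 and 5.92 in F4/80low TAM, 3.77 and 4.17 in F4/80high TAM and 3.05 and 3.75 in PEC. All 6 tested NK cell genes were higher than in PEC, with summed levels between 5.01 and 5.57, 3.29 and 3.59, and 3.23 and 3.53. On all 3 arrays of a group, 11 T cell genes were above background in F4/80low TAM, 4 in PEC and 5 in F4/80high TAM. For NK cell genes these counts were 6, 3 and 2. Some genes of both lists thus passed the filter through the F4/80low arrays alone and were bound to be higher there. Of all genes tested, 22.7% were higher in F4/80low TAM than in PEC and 18.6% lower than in F4/80high TAM. Of 10 macrophage genes, 8 were lower in F4/80low than in F4/80high TAM, and their summed levels lay between 9.0 and 9.19 against 10.11 and 10.81. The part of any of these in the members' values was not tested.

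Between the F4/80low arrays, however, those lists did not follow the members. On F4/80low replicate 1 the median deviation from the group mean was 3.54 for the secondary granule genes, 2.01 for the 3 primary granule genes that passed the filter (Ctsg and Prtn3, with wide distances, did not), 1.45 and 1.52 for the late-stage classes and 1.17 for the other neutrophil genes. It was -0.40 for T cell, -0.63 for NK cell and -0.47 for macrophage genes. Cell cycle genes moved with the granule genes: of the 9 measured on all F4/80low arrays 9 were highest on replicate 1, with a median deviation of 2.03. Their summed level was between 3.83 and 7.12 in F4/80low TAM, 4.58 and 5.82 in F4/80high TAM and 2.14 and 3.19 in PEC. Cell cycle genes were also highest on PEC replicate 1 (5 of 5) and on F4/80high replicate 1 (9 of 10), with median deviations of 0.98 and 0.66, and their part in the members' spread was not tested.

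**Figure D4:**
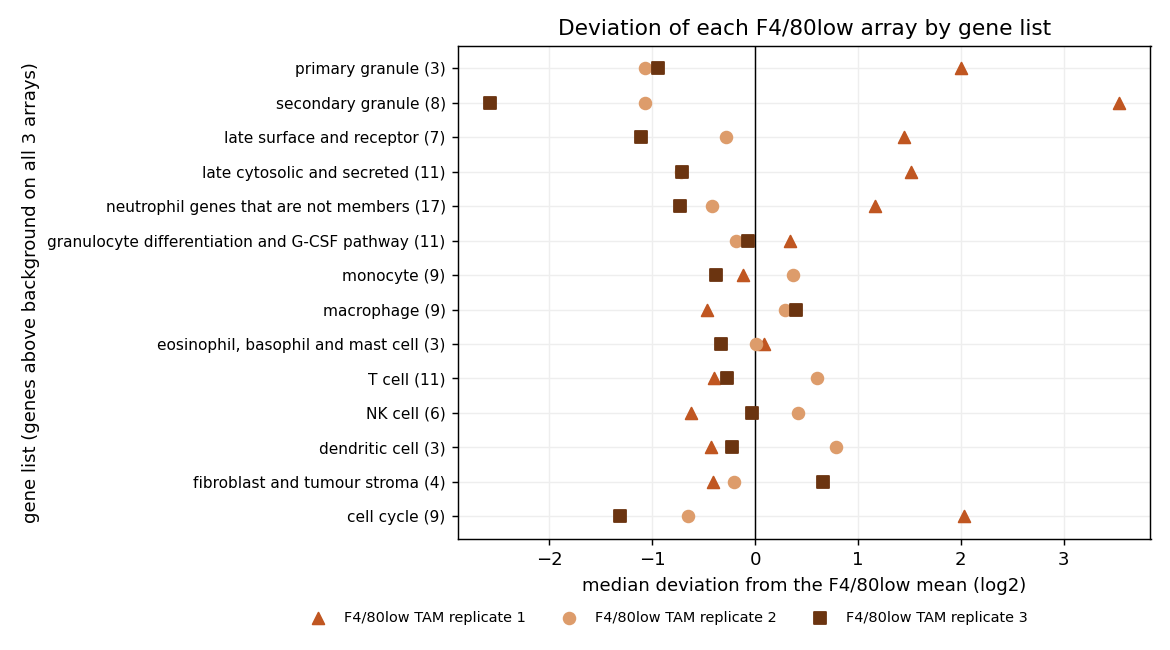
Median deviation of each F4/80low array from the F4/80low mean (x axis, log2) by gene list (y axis, with the number of genes above background on all 3 arrays). Replicate 1 lies furthest right for the secondary granule genes at 3.54, for the cell cycle genes at 2.03 and for the 3 primary granule genes with signal on all 3 arrays at 2.01, and left of 0 for the macrophage, T cell and NK cell lists.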

How the data were processed

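The deposited scanner files hold linear spot intensities from Agilent Feature Extraction 10.5.1.1 after its background subtraction, per the file headers. The authors also deposited a table of 9703 probes, whose values were taken to be log2 from their range; its normalization is not given in the sources used here, so it served as an alternative only. Intensities were put on the log2 scale, the 75th percentile of all spots that are not controls was subtracted on each array, spots with the software's outlier mark were left out, and spots of a probe were averaged. Of 55681 probes, 21197 passed the filter, and the brightest stood for its gene. Tests were limma 3.58.1 (lmFit, eBayes) in R 4.3.3 over all 9 arrays, tested on simulated data. "At least N-fold" sets the mean of a group above background on all arrays against, per dim array, the higher of its own signal and the lowest signal of any probe well above background. The members and lists were chosen with earlier results of these data known. Named are all members, up to 6 called genes of another list by size, Adgre1 to check the sort, and Csf1r, added later. Residuals of a F4/80high array and the F4/80low array with its number correlated between 0.13 and 0.23 across genes, and those with another number at most 0.02, so the numbers were taken to pair the TAM arrays; with PEC they gave -0.10 to 0.09. A planned comparison of protein sequences was replaced by runs shared between probes. The number of arrays limits the precision. Counts without Csf3r and Trem1 were added after seeing the data, from a search of all probes for shared runs of 20 bases on either strand.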

Additional observations from a re-analysis of the deposited data

Results flagged for a closer look

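The effect relative to PEC differed between F4/80low and F4/80high TAM for 21 members by the direct comparison of the subsets (limma, adjusted p under 0.05), which is the test of that difference. Where both subsets had arrays well above background, the log2 differences, F4/80low minus F4/80high, were 7.65 for Ngp, 7.13 for Stfa2l1, 6.92 for Camp, 6.85 for Ltf, 6.21 for Stfa1, 5.73 for Lrg1, 5.49 for Stfa2, 5.41 for Asprv1, 4.89 for Hp, 4.01 for Ltb4r1, 3.26 for Slpi, 2.82 for Trem1, 2.53 for Fpr1 and 2.44 for Gfi1. The other 7 were well above background on no F4/80high array, so their fitted differences have no order and the folds are lower bounds. Pglyrp1 was at least 47.5-fold higher in F4/80low TAM (fitted 6.92), G0s2 at least 13.8-fold (5.98), Stfa3 at least 13.2-fold (4.85), Padi4 at least 12.6-fold (5.05), Itgb2l at least 10.8-fold (5.28), Prok2 at least 9.26-fold (4.99) and Cd177 at least 8.41-fold (5.38). Padi4 and Stfa3 were lower than PEC in F4/80high TAM and not past the threshold in F4/80low TAM.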

How the results depend on the processing

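The counts of members called were 25 higher and 1 lower (F4/80low against PEC), 8 and 3 (F4/80high against PEC) and 21 and 0 (between subsets). Shares of all genes called are given above for these counts and for the fit without the filter, and for no other setting. Under the other settings the member counts stayed within 1.5 times of the main ones except as follows. F4/80low against PEC gave 16 higher under the stricter filter, which tests fewer members, and 16 higher and 0 lower within slide 1; slide as a block gave 17 higher and 0 lower. F4/80high against PEC gave 5 higher and 1 lower with normexp, 4 and 1 in the deposited table, 5 and 1 under the slide block, 5 and 0 within slide 1, and 5 lower when only the 2 groups were fitted. Between subsets 13 were higher under the stricter filter and 1 was lower with median scaling, which moved the median of all genes to -0.56, -0.16 and -0.40 in the 3 comparisons. Leaving out each array gave 24 to 25 higher and 1 lower, 6 to 11 higher and 1 to 5 lower, and 19 to 23 higher and 0 to 1 lower. The replicate block over all arrays gave 25 and 1, 8 and 3, and 21 and 0, and over the TAM arrays alone, an alternative chosen after seeing the data, 21 higher; beyond Gfi1 and Fpr2 it changed no other call between the subsets.

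Of 87 gene results, sign changes occurred 30 times, none for a value past the threshold under either setting. Elane (F4/80low against PEC) became -0.29 with median scaling and -0.24 under the slide block and within slide 1, and ranged from -0.82 to 0.72 when arrays were left out; Padi4 ranged from -0.63 to 1.42. In F4/80high against PEC, normexp gave Cd177 0.16, G0s2 0.21, Stfa2l1 0.14 and Lrg1 0.041; the slide block and slide 1 alone gave Pglyrp1 -0.34, Stfa2l1 1.51 and Lrg1 0.49; the deposited table gave Pglyrp1 -0.033. Leaving out arrays, Cd177 ranged from -0.29 to 0.41, G0s2 from -0.45 to 0.49, Pglyrp1 from -0.15 to 0.67, Stfa2l1 from -0.82 to 0.82 and Lrg1 from -0.76 to 0.19. Between subsets, Csf3r was 0.13 with quantile normalization and 0.19 in the deposited table, and ranged from -0.11 to 0.14 when arrays were left out, and Hdc from -0.38 to 0.92. The causes were not tested.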

Other observations

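Genes of other granulocytes varied in their pattern over the F4/80low arrays; those below were named after their values were seen. Prg2, the eosinophil major basic protein, was at 1.25 on F4/80low replicate 1 and not well above background on the other 8 arrays. Mcpt8 and Prss34, proteases of basophils, were at 1.33 and 1.67 on that array and not well above background elsewhere, and Cpa3, a mast cell and basophil carboxypeptidase, was at -2.12. Olfm4, a secondary granule protein from the list of other neutrophil genes, was above background on that array alone, at -0.83. Ear1, Ear2 and Ear6 of the eosinophil, basophil and mast cell list were also highest on replicate 1 among the F4/80low arrays. Ear2 was at 2.70, 1.03 and -0.28, Ear1 at 0.45, -1.02 and -2.86, and Ear6 at -0.01, -1.79 and -3.05. Of the F4/80low arrays, Ear1 was well above background on 2 and Ear6 on 1. Not all genes of the list shared this. Mcpt4 was above background on F4/80low replicates 2 and 3 (-1.40 and -1.74) and not on replicate 1, Ccr3 was even at 1.75, 1.67 and 1.57, and Tpsb2 was at 0.11, 0.46 and -0.21. The median deviation of replicate 1 over the 3 genes of that list above background on all F4/80low arrays was 0.09. Epx was well above background on no array. The genes at 1 array each, Ear1, Ear6, Mcpt4 and Epx missed the filter and have no test.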
